A study of Mus musculus with 20 samples.

Results

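Loss of SERCA2 activity in activated mouse CD8 T cells was compared between a drug that blocks every SERCA pump for some hours and a guide RNA against the gene of 1 pump. The groups were the activated control-guide cells given thapsigargin (TG, 50 ng/mL for 8 hours; 2 libraries) and the activated Atp2a2 knockout (KO) cells given vehicle (dimethyl sulfoxide for 8 hours; 2 libraries). They are 4 of the 20 libraries of the series, chosen by the groups in their titles. The cells were OT-I/Cas9 CD8 T cells, which carry 1 T cell receptor for an ovalbumin peptide together with the Cas9 nuclease. They were grown in IL-2, IL-7 and IL-15 with puromycin, and both groups had plate-bound anti-CD3 antibody (2.5 µg/mL) for 24 hours. The same cells with the control guide and vehicle, activated (2 libraries), are the reference for each arm alone, and resting control-guide cells with TG or with vehicle (2 libraries each) provide a TG effect from other libraries. The drug and the KO thus differ in 2 ways at once, the agent and the guide, and in time, since the guide acts from its delivery on and the drug for hours. The sources used here do not give how the hours of drug and of anti-CD3 overlapped, which guide was used or whether the KO cells are a pool or a clone. Nor do they say that the pair of libraries in a group grew apart. The p-values therefore measure only a spread between libraries, pooled over 12 T cell libraries, which may be technical.

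SERCA pumps move calcium from the cytosol into the endoplasmic reticulum (ER). Engagement of the T cell receptor opens inositol trisphosphate receptors, the ER store empties, STIM proteins sense this and open ORAI channels, and the entering calcium drives calcineurin and the NFAT factors that switch on cytokine genes. The same store is needed for protein folding, because ER chaperones bind calcium, and its loss is a classical trigger of the unfolded protein response with its PERK-ATF4, IRE1-XBP1 and ATF6 arms.

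Levels are CPM (TMM-scaled read counts relative to library size), given for replicate 1 and then replicate 2 (n = 2). A difference is the log2 of TG over KO unless another comparison is named, with the standard error of edgeR's quasi-likelihood fit over 12 T cell libraries. A gene is called, and written as higher, lower, raised or lowered, at a Benjamini-Hochberg adjusted p below 0.05 over 13432 tested genes. TG and KO libraries differed at 8130 of these genes (60.5%): 4095 were higher with TG (30.5%) and 4035 were higher in the KO (30%), and the median difference of all genes was -0.000761. The shares 30.5% and 30% are the background beside which each count of list members in TG against KO stands below. By at least 2-fold, 742 genes were higher with TG (5.52%) and 1110 higher in the KO (8.26%). The libraries of the 2 groups did not overlap, with TG above the KO, at 39.3% of genes, and with TG below it at 38.5%. Against the activated vehicle libraries TG raised 4382 genes (32.6%) and lowered 4352 (32.4%), by at least 2-fold 8.29% and 8.88%. The KO raised 2357 (17.5%) and lowered 2629 (19.6%), by at least 2-fold 2.61% and 0.476%; in all it changed 4986 genes, and 3156 under DESeq2.

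Depth was 11577923 and 12877673 counts with TG and 17391798 and 12329629 in the KO, within the range of 9985311 to 17462770 over the T cell libraries. The 2 activated KO libraries differed from each other more than the 2 of any other T cell group (chi-square per degree of freedom 3.09 against 1.45 to 1.94). The spread pooled over groups may thus be too small for the KO. The KO libraries labelled resting went against that label: Ifng was 7364 and 7414 CPM in them and 7386 and 7815 in the activated KO, but 9.01 and 9.79 in resting vehicle cells, and 79 genes (0.588%) differed between the KO groups. They entered the results below only through the shared estimate of the spread, and without them 8108 genes were called in TG against KO, with 259 of 259 named genes on the same side of the threshold. Of the marker lists, the 9 CD8 T cell genes summed to 4719 to 4734 CPM with TG and 4560.1 to 4793 in the KO, and none was at 0. The 5 CD4 or regulatory T cell markers summed to 942 to 950 CPM with TG and 847 to 868 in the KO. Most of it was Ctla4 (772 and 783 CPM with TG, 778 and 795 in the KO). Zbtb7b was 130 and 111 CPM with TG and 61.5 and 64.4 in the KO. Cd4 was 0 and 0.23 CPM with TG and 0.934 and 1.16 in the KO. Myeloid markers (12) summed to 4.13 to 4.18 CPM with TG and 9.77 to 11.7 in the KO, where Fcer1g alone was 6.54 and 6.46 CPM (1.19 and 0.918 with TG). B cell markers (8) summed to 9.12 to 9.41 CPM with TG and 32.4 to 33.8 in the KO, nearly all of it Ighm, with Ms4a1 and Cd22 at 0 in all 4 libraries. The NK or innate lymphocyte markers (7) summed to 60.2 to 60.3 CPM with TG and 141 to 145 in the KO, most of it Eomes and Trdc, and the 6 erythroid markers were at 0. Melanocyte transcripts were a trace of 6.05 to 7.5 CPM with TG, with Tyrp1 at 2.56 and 2.37 CPM, and 1.08 to 1.28 CPM in the KO, where Tyrp1 and Dct had no count. Their part in the results was not tested.

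**Figure D1:**
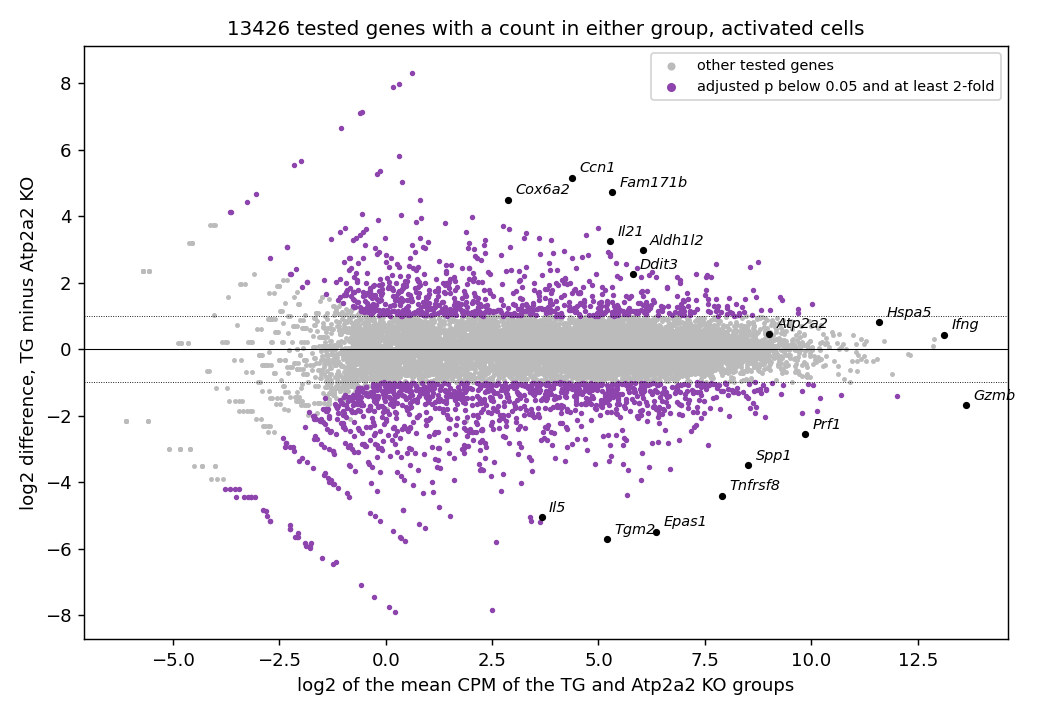
Difference between TG and Atp2a2 KO in activated cells against mean level, 1 point per tested gene (13426 with a count in either group). Horizontal axis: log2 of the mean CPM of both groups; vertical axis: log2 difference, with dotted lines at 2-fold. Purple points are called genes past 2-fold, 742 above and 1110 below; the slanting rows of points at the left are genes with few counts, where the fitted difference depends on the prior count.

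Promoter sequences are shown for 5 genes of the stress and sterol groups described below, because these groups are where many members differed between drug and knockout in 1 direction. The sequences are RefSeq's (GRCm38.p6), the 250 bases before the transcription start on the gene's strand, and capitals mark a match to 1 of 3 motifs, searched on both strands. The motifs were the ER stress element (CCAAT, any 9 bases, then CCACG), which ATF6 and NF-Y bind, a C/EBP-ATF response element (TGATGNAA), which ATF4 binds with a C/EBP partner, and a sterol regulatory element (TCACNCCAC), which SREBP binds. A match is a description of the letters and not a measured binding site.
Hspa5 (chr2:34771840-34772089, plus strand, ER stress element): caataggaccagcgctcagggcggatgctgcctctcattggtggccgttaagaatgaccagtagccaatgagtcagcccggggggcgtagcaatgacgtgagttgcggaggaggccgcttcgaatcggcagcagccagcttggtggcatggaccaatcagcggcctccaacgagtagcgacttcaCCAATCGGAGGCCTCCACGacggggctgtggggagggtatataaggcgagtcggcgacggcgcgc
Chac1 (chr2:119350992-119351241, plus strand, C/EBP-ATF element): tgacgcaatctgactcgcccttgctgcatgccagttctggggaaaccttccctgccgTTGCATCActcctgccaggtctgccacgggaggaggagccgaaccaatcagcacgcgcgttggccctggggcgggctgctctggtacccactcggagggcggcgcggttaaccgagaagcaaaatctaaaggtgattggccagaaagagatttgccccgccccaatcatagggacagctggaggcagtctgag
Asns (chr6:7693210-7693459, minus strand, C/EBP-ATF element): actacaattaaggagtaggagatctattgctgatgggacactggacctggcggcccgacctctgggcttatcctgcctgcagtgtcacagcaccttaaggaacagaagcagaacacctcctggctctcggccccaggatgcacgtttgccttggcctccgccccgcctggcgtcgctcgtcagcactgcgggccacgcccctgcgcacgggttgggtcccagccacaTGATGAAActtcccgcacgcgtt
Slc7a11 (chr3:50443614-50443863, minus strand, C/EBP-ATF element, 2 matches): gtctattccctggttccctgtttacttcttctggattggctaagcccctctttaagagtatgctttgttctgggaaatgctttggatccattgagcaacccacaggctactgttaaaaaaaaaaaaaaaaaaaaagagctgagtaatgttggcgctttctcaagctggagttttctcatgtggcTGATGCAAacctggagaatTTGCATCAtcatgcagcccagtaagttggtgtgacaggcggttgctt
Hmgcs1 (chr13:119690101-119690350, plus strand, sterol element): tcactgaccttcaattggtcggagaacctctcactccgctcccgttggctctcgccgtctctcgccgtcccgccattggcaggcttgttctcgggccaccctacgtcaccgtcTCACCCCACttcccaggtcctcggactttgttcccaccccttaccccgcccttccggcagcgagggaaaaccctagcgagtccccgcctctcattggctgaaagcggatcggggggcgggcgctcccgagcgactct
A RefSeq window was found for 9652 tested genes. The ER stress element was in the windows of 0.186% of them and of 7 of 19 ER chaperone genes (36.8%: Calr, Canx, Creld2, Dnajc3, Hsp90b1, Hspa5 and Pdia6). The C/EBP-ATF element was in 2.43% of all windows and in those of 9 of 29 ATF4 and CHOP targets (31%). The sterol element was in 1.18% of all windows and, of 16 sterol synthesis genes, in that of Hmgcs1 alone.

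The targeted gene comes first. Atp2a2 (chr5:122453513-122502225), which encodes SERCA2, was 434 and 436 CPM in the KO libraries, 596 and 604 with TG and 664 and 687 with vehicle. Both activated KO libraries lay below the 4 other activated libraries, and the difference of TG to KO was 0.46 ± 0.0341 SE, adjusted p = 7.6e-18. A guide cut need not remove the mRNA and mRNA is not protein, so these levels check the label and do not show how much pump was left. Atp2a3 (chr11:72961169-72993044), the gene of SERCA3, a pump of blood cells that TG also blocks, went the other way: 123 and 122 CPM in the KO, 74.4 and 72.4 with TG and 78.9 and 80.9 with vehicle. The KO raised it (0.62 ± 0.0455 SE, adjusted p = 4e-17) and TG lowered it (-0.12 ± 0.0497 SE, adjusted p = 0.028), so that it was 1.68-fold higher in the KO than with TG. Per kilobase of exon, Atp2a2 was at 71.5 CPM in the KO and 98.7 with TG, and Atp2a3 at 23.3 and 13.9; Atp2a1, the muscle pump, was at 0.22 and 0.3. Of the other tested genes on the SERCA list, Tmx1 (TG minus KO -0.02, 95% interval -0.11 to 0.07) and Erp44 (0.01, -0.07 to 0.09), which encode redox proteins of the ER, missed the threshold.

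Genes of store-operated entry differed at 6 of 9 tested members, 4 higher with TG and 2 in the KO, a share near the 60.5% of all genes. The lower count was 1 without TG replicate 1 or KO replicate 1. Orai1 (chr5:123015074-123030456), the pore of the channel, was 94.8 and 82.1 CPM with TG, 55.2 and 53.3 in the KO and 27.3 and 26.3 with vehicle. No library of one group overlapped another, TG and KO each raised it (1.72 ± 0.0658 SE, adjusted p = 2.1e-30 and 1.02 ± 0.0698 SE, adjusted p = 3.3e-18), and TG stood above KO by 0.70 ± 0.0585 SE, adjusted p = 1.1e-15. Stim1, the store sensor, was 53.2 and 54.8 CPM with TG and 56.5 and 55.2 in the KO, and the interval of the difference was -0.17 to 0.07. Stim2 (0.63 ± 0.0575 SE, adjusted p = 2.4e-14) and Saraf, which slows the channel after opening (0.67 ± 0.0384 SE, adjusted p = 2.6e-22), were higher with TG. Orai2 was higher in the KO (-0.31 ± 0.0988 SE, adjusted p = 0.0055), a call lost without 1 TG library (-0.26, adjusted p = 0.065) or 1 KO library (-0.27, adjusted p = 0.069).

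Among release channels the IP3 receptors split. Itpr3 (chr17:27057304-27122223) was 35.3 and 33 CPM with TG, 114 and 101 in the KO and 87 and 82.7 with vehicle, 3.17-fold higher in the KO. For Itpr3 the difference was -1.67 ± 0.0617 SE, adjusted p = 8.2e-29. Itpr1 was 407 and 419.6 CPM with TG and 410.4 and 369 in the KO. Itpr2 was 38.2 and 39.1 CPM with TG and 37 and 30.8 in the KO; neither passed (0.08, adjusted p = 0.071; 0.17, adjusted p = 0.062), though without KO replicate 1 both were higher with TG (0.16, adjusted p = 0.0012 and 0.33, adjusted p = 0.0032). Lrmp, an ER membrane protein of lymphocytes, was lower with TG (-1.01 ± 0.0562 SE, adjusted p = 5.7e-23). The other calls of the release list rest on few counts: Ryr3 had 1 count with TG and 10 in the KO (95% exact binomial interval of the ratio 1.21 to 369, counting error only), and the calls of Ryr1, Ryr3 and Mrvi1 were lost under DESeq2, which left 2 of 5 lower members. Leaving out TG replicate 1, TG replicate 2 or KO replicate 2 left 3, 2 and 3 of the 5.

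Of 11 tested genes for calcium transport elsewhere, 6 were higher with TG and 4 in the KO, beside 30.5% and 30% of all genes. Mcu, the mitochondrial uniporter pore, was 66.5 and 71.4 CPM with TG and 32.9 and 33.9 in the KO (1.05 ± 0.067 SE, adjusted p = 2.3e-20), and its paralogue Mcub followed (1.13 ± 0.134 SE, adjusted p = 1.2e-10). Atp2b1, the plasma membrane pump, was 185 and 192 CPM with TG and 119 and 119 in the KO. For Atp2b1 the difference was 0.66 ± 0.0417 SE, adjusted p = 1.3e-20. Atp2b4, another plasma membrane pump, was lowered by both, more by TG (-0.85 and -0.57; TG minus KO -0.28 ± 0.0425 SE, adjusted p = 6.7e-08). Atp2c1, the Golgi pump, did not pass (interval -0.10 to 0.08).

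**Figure D2:**
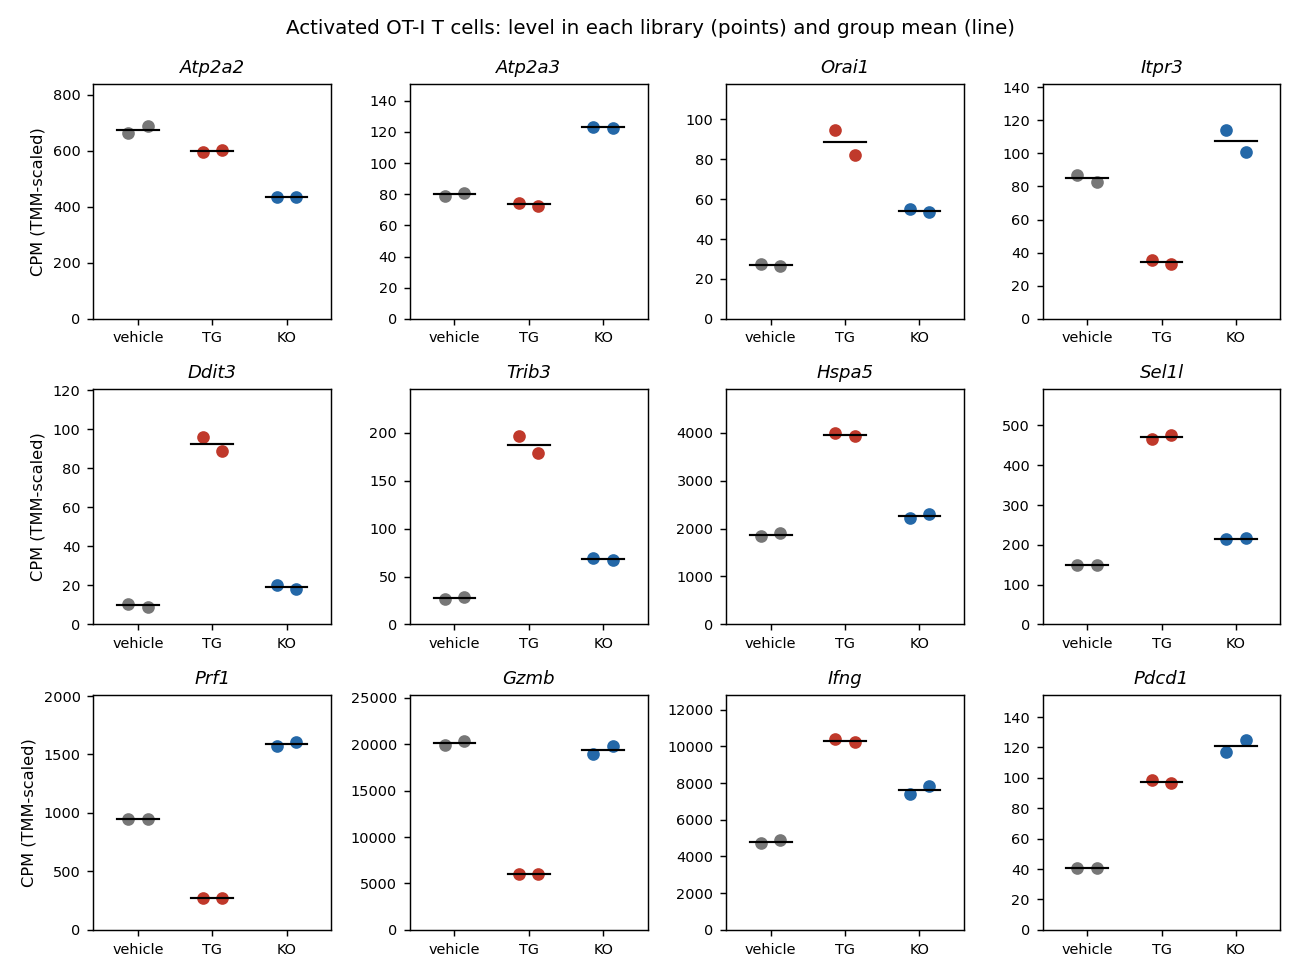
Level of 12 genes in each library of the 3 activated groups (points; vehicle grey, TG red, KO blue) with the group mean (line). Vertical axes: CPM from 0, a scale of its own in each panel. Orai1, Ddit3, Trib3, Hspa5 and Sel1l run vehicle, KO, TG from low to high, whereas Prf1 is at 269 and 271 CPM with TG and 1573 and 1609 in the KO.

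Targets of the integrated stress response were raised by both agents over vehicle and stood higher with TG than in the KO. Of 36 tested ATF4 and CHOP targets, 31 were higher with TG than in the KO (background 30.5%), 3 were lower and 2 did not pass, with a median difference of 0.79 against -0.000761 for all genes. Against vehicle TG raised 34 and lowered 2, beside 32.6% and 32.4% of all genes. The KO raised 32 and lowered 2, beside 17.5% and 19.6% of all genes. These counts share the vehicle libraries. Ddit3 (chr10:127290774-127296288), which encodes CHOP, was 96.2 and 88.9 CPM with TG, 20.3 and 18.4 in the KO and 10.7 and 9.09 with vehicle. The 3 groups did not overlap; the KO level was raised over vehicle (0.96 ± 0.107 SE, adjusted p = 8.8e-11) and the TG level stood 4.75-fold above the KO (2.25 ± 0.0718 SE, adjusted p = 5.5e-34). Atf4 itself was 775 and 741 CPM with TG and 432 and 458 in the KO. For Atf4 the difference was 0.77 ± 0.037 SE, adjusted p = 1.7e-25.

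Of the list's 36 tested members 14 were at least 2-fold higher with TG, beside 5.52% of all genes. Aldh1l2 (chr10:83487450-83534140), a mitochondrial folate enzyme, was 111 and 123 CPM with TG, 15.3 and 14.3 in the KO and 4.02 and 4.16 with vehicle. For Aldh1l2 the difference was 2.97 ± 0.0725 SE, adjusted p = 1.7e-39. Cth, which makes cysteine from cystathionine, was 302 and 301 CPM with TG and 66.5 and 68.2 in the KO. For Cth the difference was 2.16 ± 0.0451 SE, adjusted p = 9.7e-43. Slc7a3, a cationic amino acid transporter, was 153 and 153 CPM with TG, 41.8 and 43.4 in the KO and 16.3 and 18.5 with vehicle. For Slc7a3 the difference was 1.85 ± 0.0532 SE, adjusted p = 4.4e-36. Slc7a11, the cystine transporter whose window above holds 2 elements, was 38.9 and 36.2 CPM with TG, 12.8 and 14 in the KO and 3.09 and 4.54 with vehicle. For Slc7a11 the difference was 1.49 ± 0.0993 SE, adjusted p = 4.1e-19. Both agents raised it, by 3.33 and 1.84. Trib3, an ATF4-induced pseudokinase (196 and 179 CPM with TG, 69.2 and 67.2 in the KO), and Chac1, which degrades glutathione (43.9 and 42.8 CPM with TG and 14.1 and 14.3 in the KO), were higher with TG by 1.46 ± 0.0481 SE, adjusted p = 2.5e-33 and by 1.61 ± 0.0857 SE, adjusted p = 1e-23. Of the 9 list members with the element in their window, 7 were higher with TG (median 1.37), and of the 20 with a window and no match 18 were (median 0.73). The largest difference was 1.61 among the 9 and 2.25 among the 20, and the split was not tested. Atf3, an early stress factor whose window holds the element, was among the 3 lower members: 105 and 105 CPM with TG, 127 and 126 in the KO and 147 and 149 with vehicle (-0.27 ± 0.0456 SE, adjusted p = 7.3e-07), and it was lowered by both.

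The tRNA synthetases, many of them ATF4 targets, were higher with TG at 14 of 20 members and lower at 3 (median 0.51). Wars was 432 and 421 CPM with TG and 205 and 211 in the KO. For Wars the difference was 1.04 ± 0.0377 SE, adjusted p = 2.5e-31. Gars was 955 and 941 CPM with TG and 509 and 539 in the KO. For Gars the difference was 0.86 ± 0.038 SE, adjusted p = 4.6e-25.

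**Figure D3:**
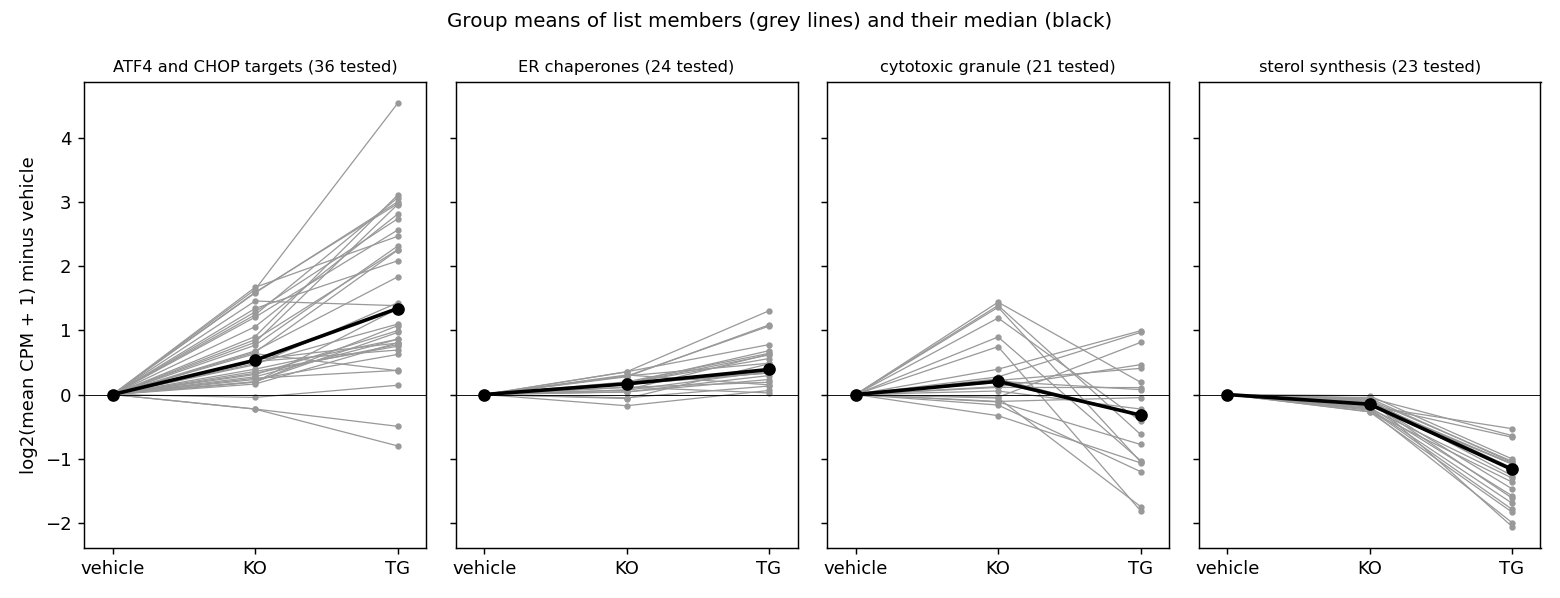
Tested members of 4 gene lists over the activated groups, as log2(mean CPM + 1) minus the vehicle value (grey lines, 1 per gene; black, their median). The ATF4 and CHOP targets step up from vehicle to KO to TG, ER chaperones do so by less, cytotoxic granule genes rise in the KO or fall with TG in part, and sterol synthesis genes fall with TG. The +1 compresses genes of low level.

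The folding arm of the unfolded protein response differed in the same direction with smaller steps. Of 24 ER chaperones 20 were higher with TG and 2 lower (median 0.25); the lower count was 0 without TG replicate 2 or without KO replicate 2. Of the 7 with the ER stress element in their window 6 were higher with TG (median 0.22). Of the 12 with a window and no match 10 were (median 0.27), and this split was not tested either. Hspa5 (chr2:34771970-34777547), the BiP chaperone, was 3983 and 3928 CPM with TG, 2211 and 2308 in the KO and 1834 and 1897 with vehicle, with no overlap between groups. The KO raised it by 0.28 ± 0.0319 SE, adjusted p = 2.5e-10 and TG exceeded the KO by 0.81 ± 0.032 SE, adjusted p = 1.4e-29. Hsp90b1, the GRP94 chaperone, was 2718 and 2717 CPM with TG and 2238 and 2321 in the KO (0.25 ± 0.034 SE, adjusted p = 5.7e-09); in the KO it did not differ detectably from vehicle (0.04, adjusted p = 0.37). Calr, a calcium-binding chaperone whose window also holds the ER stress element, went against the list: 2079.8 and 2038 CPM with TG, 2159.6 and 2223 in the KO (-0.09 ± 0.0333 SE, adjusted p = 0.017), a call lost without TG replicate 2 (-0.08, adjusted p = 0.095) or KO replicate 2 (-0.07, adjusted p = 0.15). Of all 17 tested calcium-binding proteins of the ER lumen, 13 were higher with TG and 2 lower, Calu with 474 and 475 CPM with TG, 269 and 281 in the KO (0.79 ± 0.0369 SE, adjusted p = 3.4e-26) and Nucb2 with 25.1 and 27.2 CPM with TG, 8.99 and 8.78 in the KO (1.56 ± 0.113 SE, adjusted p = 4.4e-18) among the former, and Rcn1 (-0.59 ± 0.0563 SE, adjusted p = 1e-13) with Calr the latter. Without TG replicate 2 or KO replicate 2, 1 lower member was left. Manf, a secreted ER stress factor, was higher with TG (0.45 ± 0.0369 SE, adjusted p = 6.4e-16).

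Targets of IRE1 and XBP1 were higher with TG at 26 of 30 members and lower at 1 (median 0.45). Sec24d, a COPII coat subunit, was 234 and 227 CPM with TG, 82 and 81.7 in the KO and 67.3 and 68 with vehicle. For Sec24d the difference was 1.49 ± 0.0441 SE, adjusted p = 1.5e-35. Dnajb9, a BiP co-chaperone, was 40.0 and 39.4 CPM with TG and 17 and 15.1 in the KO. For Dnajb9 the difference was 1.29 ± 0.0835 SE, adjusted p = 3.9e-20. Kdelr3, which returns ER proteins from the Golgi, was 15 and 13.2 CPM with TG and 3.15 and 3.64 in the KO. For Kdelr3 the difference was 2.06 ± 0.154 SE, adjusted p = 1.4e-17. ER-associated degradation was higher with TG at 19 of 22 members and lower at 1 (median 0.47). Its scaffold Sel1l was 465 and 476 CPM with TG, 215 and 216 in the KO and 148 and 149 with vehicle. For Sel1l the difference was 1.13 ± 0.0368 SE, adjusted p = 1.5e-33. Herpud1 was 207 and 207 CPM with TG and 109 and 115 in the KO. For Herpud1 the difference was 0.89 ± 0.0428 SE, adjusted p = 9e-26. ER to Golgi transport was higher at 26 of 30 and lower at 1 (median 0.45), with Sec23a at 184 and 188 CPM with TG, 66.2 and 66.6 in the KO. For Sec23a the difference was 1.49 ± 0.046 SE, adjusted p = 1.2e-34. N-glycosylation and translocon genes were higher at 21 of 30 and lower at 3 (median 0.24). Against vehicle, TG raised 26 of the 30 ER to Golgi genes and 20 of the 22 degradation genes, beside 32.6% of all genes. The KO raised 6 and 5 of them, a share near the 17.5% of all genes. Its shares were above 17.5% in other lists. It raised 15 of 24 ER chaperones and lowered 1, and it raised 14 of 30 IRE1 and XBP1 targets and lowered 2. Of the 17 calcium-binding proteins of the lumen it raised 8 and lowered 0. In these lists TG raised 22, 29 and 13 and lowered 0, 1 and 1. Differences between these counts were not tested.

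The sensors themselves were uneven. Atf6 was 164 and 164 CPM with TG and 76.3 and 76.7 in the KO (1.10 ± 0.0465 SE, adjusted p = 2.6e-28), whereas Eif2ak3, the gene of PERK, was lower with TG (82 and 85.1 CPM with TG, 143 and 139.9 in the KO; -0.76 ± 0.045 SE, adjusted p = 1e-21). Ern1, the gene of IRE1, did not pass (0.13 ± 0.0658 SE, adjusted p = 0.077), although it did without KO replicate 1 (0.19, adjusted p = 0.049) or TG replicate 1 (0.19, adjusted p = 0.037). Xbp1 was 244 and 251 CPM with TG and 192 and 206 in the KO (0.32 ± 0.04 SE, adjusted p = 6.7e-10); counts per gene do not tell its spliced from its unspliced form.

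Sterol synthesis genes stood lower with TG. All 23 tested members were lower with TG than in the KO (background 30%), with a median of -1.09. By at least 2-fold 16 of them were lower, beside 8.26% of all genes. Hmgcs1 (chr13:119690379-119708260), an early enzyme of the mevalonate pathway, was 173 and 172 CPM with TG, 569.9 and 596 in the KO and 677 and 705 with vehicle, 3.38-fold higher in the KO. For Hmgcs1 the difference was -1.76 ± 0.0379 SE, adjusted p = 5.3e-42. Mvd was 23.5 and 23.8 CPM with TG and 94.7 and 98.1 in the KO. For Mvd the difference was -2.02 ± 0.0637 SE, adjusted p = 2.9e-34. Lss was 57.2 and 58.1 CPM with TG and 175 and 168 in the KO. For Lss the difference was -1.58 ± 0.0496 SE, adjusted p = 3e-34. Against vehicle TG lowered all 23, beside 32.4% of all genes. The KO lowered 15 and raised none, beside 19.6% and 17.5% of all genes. For Hmgcs1 the KO effect was -0.25 and the TG effect -2.001.

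Most tested genes of growth and division were lower with TG too. Of 22 glycolysis genes 19 were lower and none higher (median -0.51); Slc2a3, a glucose transporter, was 196 and 196 CPM with TG, 535 and 545 in the KO and 388 and 395 with vehicle (-1.46 ± 0.0371 SE, adjusted p = 1.1e-38), lowered by TG and raised by the KO. Eno1 was 699 and 666 CPM with TG and 1168 and 1242 in the KO. For Eno1 the difference was -0.82 ± 0.0349 SE, adjusted p = 4e-28. Of 30 DNA replication genes 29 were lower with TG (median -0.96), and of 25 mitosis genes all 25 (median -1.12). Rrm2, a subunit of ribonucleotide reductase, was 41.1 and 44.8 CPM with TG, 162 and 162 in the KO and 223 and 233 with vehicle. For Rrm2 the difference was -1.91 ± 0.0505 SE, adjusted p = 8.2e-38. Mki67 was 111 and 123 CPM with TG and 335 and 295 in the KO. For Mki67 the difference was -1.43 ± 0.0973 SE, adjusted p = 7.3e-06. Plk1 was 15.4 and 12.2 CPM with TG and 39.1 and 43 in the KO. For Plk1 the difference was -1.57 ± 0.0883 SE, adjusted p = 1.1e-22. The KO lowered all members of both cell cycle lists against vehicle, as TG did. Of all genes the KO lowered 19.6% and TG 32.4%. The effect on Rrm2 was -0.49 in the KO and -2.40 with TG. In bulk samples, fewer cycling cells and less RNA per cell cannot be told apart. Of 23 G1 and MYC network genes 16 were lower with TG, 4 were higher and 3 did not pass (median -0.58). The 4 higher, named after their values were seen, were the CDK inhibitor genes Cdkn1b, Cdkn2a and Cdkn2c and the MYC antagonist Mxd4. Ccnd3 (74.1 and 72.3 CPM with TG, 251 and 239.8 in the KO; -1.75 ± 0.0438 SE, adjusted p = 5.8e-39) and Mycn (10.8 and 8.65 CPM with TG, 59.6 and 58.8 in the KO; -2.61 ± 0.0931 SE, adjusted p = 3.4e-31) were lower with TG, and Myc differed by less (-0.44 ± 0.0377 SE, adjusted p = 3.6e-15). Ribosome biogenesis genes were lower with TG at 19 of 24 members and higher at 1 (median -0.31), with Bop1 at 129 and 117 CPM with TG, 192 and 201 in the KO. For Bop1 the difference was -0.68 ± 0.0444 SE, adjusted p = 6.9e-20. All 7 tested mitochondrial mRNAs were lower with TG (median -0.35), mt-Cytb at 2363 and 2544 CPM with TG, 3127 and 3146 in the KO (-0.35 ± 0.0338 SE, adjusted p = 3.6e-13), beside a mitochondrial share of all counts of 1.41% and 1.54% with TG and 1.72% and 1.73% in the KO.

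**Figure D4:**
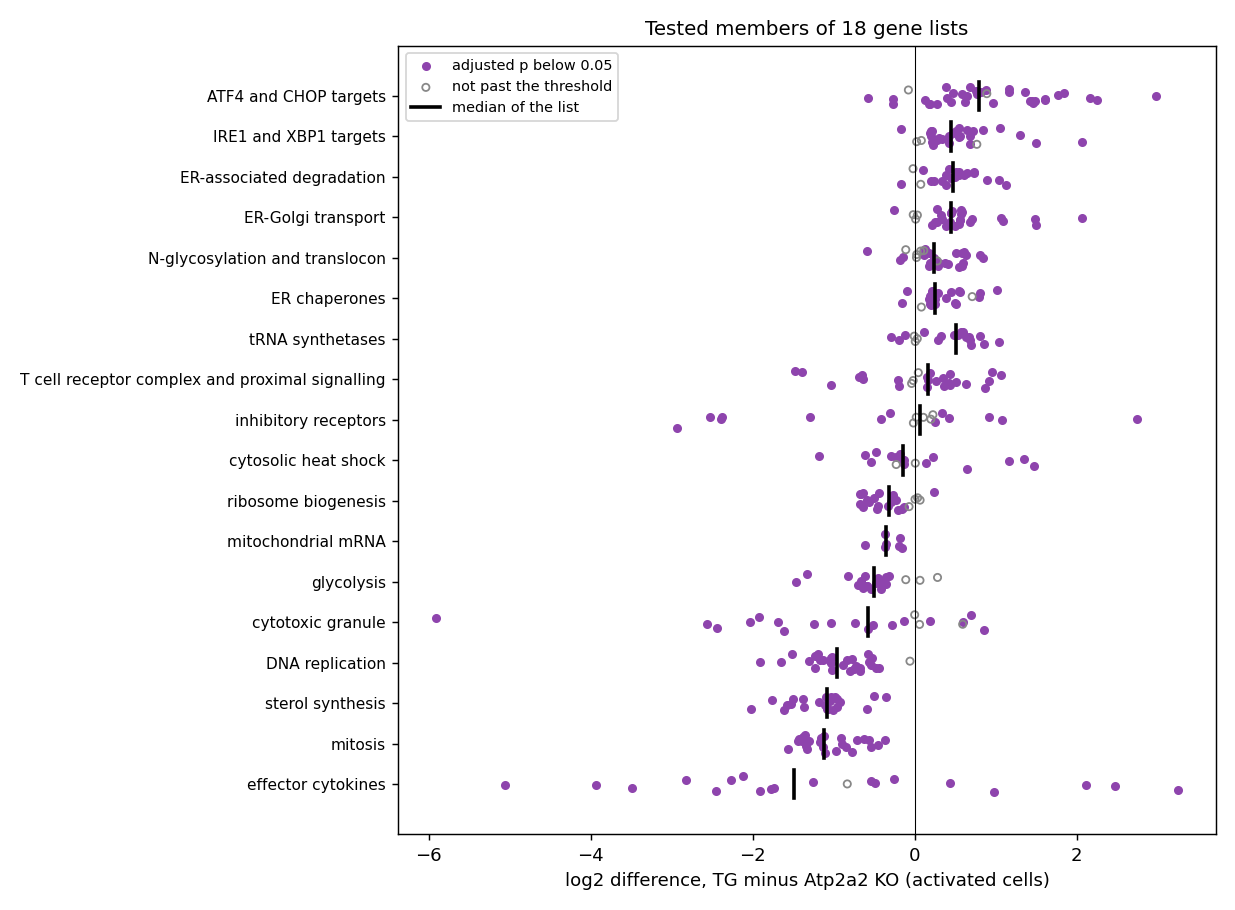
Log2 difference, TG minus Atp2a2 KO, of each tested member of 18 lists (points; filled, adjusted p below 0.05) with the list's median (bar). The ER stress, ATF4 and secretory lists have medians right of 0, and cytosolic heat shock has its median left of it (-0.14). Sterol synthesis, mitosis and DNA replication have medians left of 0 with no called member on the right. The leftmost cytotoxic granule point is Gzmk, which had no count with TG, so its fitted place depends on the prior count.

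Genes of the cytotoxic granule were mostly lower with TG than in the KO. Of 21 granule genes 14 were lower with TG and 4 higher (median -0.58, also with Gzmk set against a floor of 3 counts). Prf1 (chr10:61297833-61304680), which encodes the pore-forming perforin, was 269 and 271 CPM with TG, 1573 and 1609 in the KO and 947 and 950.3 with vehicle. TG lowered it (-1.81 ± 0.0356 SE, adjusted p = 3.4e-44) and the KO raised it (0.75 ± 0.0331 SE, adjusted p = 3e-26), so that the KO stood 5.89-fold above TG (-2.56 ± 0.036 SE, adjusted p = 1.3e-50). Gzmb, the main granzyme of these cells, was 6004 and 6013 CPM with TG, 18945 and 19808 in the KO and 19872 and 20390.3 with vehicle (-1.69 ± 0.0297 SE, adjusted p = 4e-46); in the KO it missed the threshold against vehicle (-0.06, adjusted p = 0.13). Gzmg (29.5 and 29.4 CPM with TG, 162 and 159 in the KO; -2.44 ± 0.0545 SE, adjusted p = 2.2e-41) and Gzmf (33.2 and 33.2 CPM with TG, 134 and 139 in the KO; -2.04 ± 0.0595 SE, adjusted p = 8.7e-36) were lowered by TG and raised by the KO; these granzyme genes are near copies, and reads shared between copies may be counted in part. Gzmk had 0 counts with TG and 17 in the KO, which is at least 4.81-fold higher in the KO against a floor of 3 counts over the group.

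Cytokines split by gene. Of 20 tested, 14 were lower with TG and 5 higher (median -1.49). Ifng (chr10:118441046-118445892), the type 1 effector cytokine, was higher with TG: 10396 and 10209 CPM, 7386 and 7815 in the KO and 4712 and 4874 with vehicle (0.44 ± 0.0304 SE, adjusted p = 7e-19), both agents having raised it. Il2 was 31.2 and 29.5 CPM with TG, 7.07 and 6.87 in the KO and 16.2 and 15.7 with vehicle; TG raised it and the KO lowered it (0.92 ± 0.0911 SE, adjusted p = 3.6e-13 and -1.19 ± 0.119 SE, adjusted p = 3.6e-12). For Il2 the difference of TG to KO was 2.12 ± 0.109 SE, adjusted p = 3.7e-24. Il21, a helper-type cytokine, was 66.9 and 73.8 CPM with TG and 6.95 and 7.95 in the KO. For Il21 the difference was 3.25 ± 0.0931 SE, adjusted p = 9.3e-36. Il5, a type 2 cytokine, was 0.938 and 0.536 CPM with TG, 23.7 and 25.5 in the KO and 3.85 and 3.03 with vehicle. For Il5 the difference was -5.06 ± 0.195 SE, adjusted p = 4.1e-30. Il13 was 7.67 and 8.03 CPM with TG, 117 and 125 in the KO and 90.2 and 91.6 with vehicle. For Il13 the difference was -3.94 ± 0.0818 SE, adjusted p = 9e-43. Spp1, osteopontin, was 59.9 and 60.3 CPM with TG, 653 and 694 in the KO and 241 and 243 with vehicle. For Spp1 the difference was -3.48 ± 0.0489 SE, adjusted p = 1.6e-41. Tnf was lowered by both, more by TG (54.9 and 54.5 CPM with TG, 81.8 and 77 in the KO, 117 and 111 with vehicle; -0.54 ± 0.0569 SE, adjusted p = 3.1e-12). Of 9 tested chemokines 3 were higher with TG, Ccl4 among them (693 and 673 CPM with TG, 466 and 485 in the KO; 0.52 ± 0.0357 SE, adjusted p = 3.8e-19), and 5 lower, such as Ccl9 (-0.65 ± 0.05 SE, adjusted p = 3.4e-17).

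Downstream of calcium, the calcineurin and NFAT list was lower with TG at 7 of 16 members and higher at 3 (5 without KO replicate 1). Of all genes 30% were lower and 30.5% higher. Nfatc2 (chr2:168476410-168601657), the NFAT present before activation, was 28.5 and 28.2 CPM with TG, 104 and 97.8 in the KO and 127 and 120.5 with vehicle, 3.57-fold higher in the KO. For Nfatc2 the difference was -1.84 ± 0.0632 SE, adjusted p = 7.1e-32. Nfatc1, the NFAT induced by activation, was raised by both against vehicle (0.82 ± 0.043 SE, adjusted p = 2.7e-24 and 0.74 ± 0.0427 SE, adjusted p = 3.4e-21), and TG and KO did not differ past the threshold (185 and 191 CPM with TG, 183 and 171 in the KO; 0.09, adjusted p = 0.06) except without KO replicate 1 (0.14, adjusted p = 0.013). Rcan1, a calcineurin regulator that NFAT induces, was 21.4 and 21.4 CPM with TG, 10.3 and 8.61 in the KO and 7.75 and 8.48 with vehicle. For Rcan1 the difference was 1.16 ± 0.112 SE, adjusted p = 1.8e-13. The catalytic subunits Ppp3ca (-0.41 ± 0.066 SE, adjusted p = 2.9e-07) and Ppp3cc (-0.59 ± 0.0455 SE, adjusted p = 6.2e-17) were lower with TG. In the early-response and NR4A groups Nr4a3 was 1164 and 1128 CPM with TG, 497 and 494 in the KO and 331 and 312 with vehicle (1.21 ± 0.0357 SE, adjusted p = 1.4e-35), whereas Egr3 was lower with TG (9.12 and 7.96 CPM with TG, 30.4 and 28.7 in the KO; -1.80 ± 0.105 SE, adjusted p = 5.2e-22). Spry1, a brake on receptor signalling, was 138 and 128 CPM with TG and 28.6 and 30.1 in the KO. For Spry1 the difference was 2.18 ± 0.0641 SE, adjusted p = 2.6e-33. Of the T cell receptor complex and its proximal signalling, 16 of 27 genes were higher with TG and 8 lower, beside 30.5% and 30% of all genes. Cd247, the zeta chain, was higher (346 and 358 CPM with TG, 163 and 175 in the KO; 1.06 ± 0.0405 SE, adjusted p = 2.7e-30) and Cd5 (-1.48 ± 0.0761 SE, adjusted p = 1.9e-24) and the adaptor Lat (-1.03 ± 0.0403 SE, adjusted p = 6.5e-30) were lower.

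Inhibitory receptors gave no common direction: 6 of 18 were higher with TG, 7 lower and 5 did not pass. These shares are near the 30.5% higher and 30% lower of all genes. Pdcd1, which encodes PD-1, was 98.5 and 96.5 CPM with TG, 117 and 125 in the KO and 40.8 and 40.7 with vehicle; both agents raised it and the KO slightly more. For Pdcd1 the difference was -0.30 ± 0.0468 SE, adjusted p = 1.1e-07. Lag3 was 1146 and 1087 CPM with TG and 522 and 539 in the KO. For Lag3 the difference was 1.07 ± 0.0346 SE, adjusted p = 7.8e-34. Havcr2, which encodes TIM-3, was 457 and 454 CPM with TG and 341 and 340.2 in the KO (0.42 ± 0.0352 SE, adjusted p = 1.3e-15), with vehicle lowest in both (Lag3 379 and 389 CPM, Havcr2 193 and 194 CPM). Btla was 35.5 and 36.8 CPM with TG, 5.49 and 5.3 in the KO and 9.85 and 9.54 with vehicle (2.74 ± 0.107 SE, adjusted p = 8.2e-30), and Cd244a was the reverse, 5.88 and 6.27 CPM with TG, 31.4 and 32.7 in the KO and 13.8 and 12.9 with vehicle (-2.39 ± 0.109 SE, adjusted p = 7.3e-27).

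Of 20 costimulatory and TNF superfamily genes 10 were higher with TG and 7 lower, of 17 effector transcription factors 9 and 7, and of 23 naive and memory genes 9 and 8. These stand beside 30.5% higher and 30% lower of all genes. Il2rb, the beta chain of the IL-2 and IL-15 receptors, was 479.9 and 489 CPM with TG, 1739.6 and 1768 in the KO and 1736 and 1759 with vehicle. For Il2rb the difference was -1.86 ± 0.0332 SE, adjusted p = 8.6e-46. Il2ra was 2836 and 2873 CPM with TG and 4704 and 4807 in the KO (-0.74 ± 0.0303 SE, adjusted p = 8.5e-29), and Il7r was higher with TG (297 and 309 CPM with TG, 183 and 186 in the KO; 0.72 ± 0.0377 SE, adjusted p = 6.3e-24). Of the whole list of interleukin receptors and SOCS genes 15 of 24 were lower with TG and 7 higher. Tnfrsf8, which encodes CD30, was 20.1 and 22.6 CPM with TG, 462 and 448 in the KO and 726 and 737 with vehicle, 21.2-fold higher in the KO. For Tnfrsf8 the difference was -4.41 ± 0.0535 SE, adjusted p = 1e-53. Slamf1 (117 and 124 CPM with TG, 27 and 23.8 in the KO; 2.24 ± 0.0647 SE, adjusted p = 2.3e-35) and Cd40lg (47.8 and 47.4 CPM with TG, 6.42 and 6.87 in the KO; 2.84 ± 0.0995 SE, adjusted p = 4.2e-32) were higher with TG. Id2, a regulator of effector cells, was 107 and 106 CPM with TG and 419 and 439 in the KO. For Id2 the difference was -2.01 ± 0.0401 SE, adjusted p = 1.7e-43. Eomes, also counted among the NK markers above, was 28.9 and 25.9 CPM with TG and 99.9 and 97.8 in the KO. For Eomes the difference was -1.85 ± 0.0598 SE, adjusted p = 8.4e-34. Lef1 was 13.4 and 14.2 CPM with TG and 49.2 and 44.6 in the KO (-1.78 ± 0.0877 SE, adjusted p = 4.6e-25), while Tcf7, which encodes TCF-1, was lowest in the KO (25.8 and 24.8 CPM with TG, 18.4 and 14.9 in the KO, 34.8 and 34.5 with vehicle; 0.58 ± 0.0926 SE, adjusted p = 2.9e-07).

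Death and survival genes gave no common direction. Of 19 tested pro-apoptotic genes 6 were higher with TG and 6 lower, and of 11 survival genes 3 and 4. Of all genes 30.5% were higher and 30% lower, which is near these shares. Bcl2l11, which encodes BIM, was 57.9 and 57.5 CPM with TG, 60.0 and 60.5 in the KO and 23.3 and 23.9 with vehicle: both raised it, and the interval of TG minus KO was -0.17 to 0.05. Bbc3, which encodes PUMA, was 28.5 and 26.2 CPM with TG and 19 and 19.5 in the KO. For Bbc3 the difference was 0.50 ± 0.135 SE, adjusted p = 0.0042. Bcl2l1, which encodes BCL-XL, was 135 and 132 CPM with TG and 261 and 277 in the KO. For Bcl2l1 the difference was -1.01 ± 0.0409 SE, adjusted p = 4.4e-29. Bcl2 itself did not pass (-0.08 ± 0.0348 SE, adjusted p = 0.057), but was lower with TG under 6 of the alternatives, among them those without TG replicate 2 (-0.11, adjusted p = 0.022) and without KO replicate 2 (-0.09, adjusted p = 0.047). Of 23 p53 targets 10 were higher with TG and 8 lower (5 without TG replicate 2); Plk2 was higher (324 and 318 CPM with TG, 111 and 116 in the KO; 1.498 ± 0.043 SE, adjusted p = 4.2e-36) and Gadd45g, a stress gene of T cells, lower (12.4 and 10.4 CPM with TG, 134 ± 5.59 (mean ± SD) in the KO; -3.56 ± 0.0974 SE, adjusted p = 2.4e-17).

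Other stress groups were mixed, and their counts stand beside 30.5% higher and 30% lower of all genes. Sqstm1, the autophagy receptor p62, was 930.3 and 916 CPM with TG, 305 and 320.4 in the KO and 176 and 179 with vehicle (1.56 ± 0.0363 SE, adjusted p = 1.5e-40), in a list of autophagy and lysosome genes with 14 of 26 higher and 4 lower. Ctsd, a lysosomal protease, was lower with TG (261 and 252 CPM with TG, 642 and 648 in the KO; -1.33 ± 0.037 SE, adjusted p = 8.3e-37). Of 19 NRF2 targets 8 were higher with TG and 7 lower; the factor's own gene Nfe2l2 was higher (1.10 ± 0.0682 SE, adjusted p = 4.5e-17) and Me1 lower (1.19 and 1.3 CPM with TG, 9.23 and 8.53 in the KO; -2.83 ± 0.214 SE, adjusted p = 2.5e-17). Cytosolic heat shock genes were higher with TG at 6 of 18 members and lower at 10, Hspa4l (1.35 ± 0.0451 SE, adjusted p = 5e-33) among the former and Dnajb4 (-1.19 ± 0.0704 SE, adjusted p = 1.1e-21) among the latter. Of 16 hypoxia genes 9 were lower with TG and 3 higher: Epas1 (chr17:86753700-86833410), which encodes HIF-2 alpha, was 3.15 and 3.9 CPM with TG, 164 and 156 in the KO and 87.8 and 88.7 with vehicle. For Epas1 the difference was -5.49 ± 0.0885 SE, adjusted p = 7.8e-48. Of 28 interferon-stimulated genes 14 were higher with TG and 3 lower (median 0.37), and the 3 included Mx1 (3.92 and 3.29 CPM with TG, 26.7 and 26.1 in the KO; -2.88 ± 0.136 SE, adjusted p = 4.6e-26). Against vehicle, TG raised 9 of the 28 and lowered 11, beside 32.6% and 32.4% of all genes. The KO raised 2 and lowered 15, beside 17.5% and 19.6% of all genes. MHC class I presentation was higher at 11 of 19 members and lower at 6; Tapbp, the peptide-loading chaperone tapasin, was lower (117 and 109 CPM with TG, 232 and 239 in the KO; -1.06 ± 0.0442 SE, adjusted p = 5.3e-28).

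Apart from any list, the 12 genes furthest above the KO with TG, by the naming rule, ran from Ccn1 to Il21. Ccn1, a secreted matrix protein, was 41.8 and 39.3 CPM with TG, 1.17 and 1.08 in the KO and 3.09 and 3.03 with vehicle. For Ccn1 the difference was 5.15 ± 0.154 SE, adjusted p = 2.1e-35. Fam171b was 74.8 and 79.4 CPM with TG and 2.92 and 2.9 in the KO. For Fam171b the difference was 4.72 ± 0.108 SE, adjusted p = 7.4e-41. Cox6a2, the muscle form of a cytochrome oxidase subunit, was 13.6 and 14.5 CPM with TG and 0.584 and 0.663 in the KO. For Cox6a2 the difference was 4.49 ± 0.227 SE, adjusted p = 1e-24. Map1b, a microtubule protein known from neurons, was 54.1 and 62.9 CPM with TG and 5.37 and 3.64 in the KO. Ocln, the tight junction protein occludin, was 13.8 and 13.8 CPM with TG and 1.4 and 0.745 in the KO. Cd33, a myeloid lectin, was 13.2 and 11.9 CPM with TG and 0.993 and 0.911 in the KO. Shisa3, Slc13a3, Bdh2, Dthd1 and Cd24a make up the 12, with differences of 3.50, 3.43, 3.34, 3.34 and 3.27.

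The 12 furthest below ran from Zfp683 to Pglyrp1. Zfp683, which encodes the tissue-residency factor HOBIT, had 1 count with TG and 334 in the KO, a ratio with a 95% exact binomial interval of 50.6 to 11241 (counting error only); it was 12.3 and 10.3 CPM in the KO and 1.92 and 1.82 with vehicle. Tgm2, a transglutaminase, was 1.7 and 1.07 CPM with TG, 73.4 and 71.2 in the KO and 71.2 and 71.7 with vehicle. For Tgm2 the difference was -5.71 ± 0.152 SE, adjusted p = 1.6e-24. Selp, P-selectin, was 0.682 and 0.459 CPM with TG and 21.7 and 19.6 in the KO (-5.18 ± 0.211 SE, adjusted p = 5.4e-29). Tcrg-C1, a gamma chain constant gene with close copies, was 0.17 and 0.23 CPM with TG and 11.3 and 12.4 in the KO. Fgr, a Src-family kinase, was 0.597 and 0.689 CPM with TG and 13.5 and 11.3 in the KO. Itih5 (0.426 and 0.842 CPM with TG, 23.8 and 24.2 in the KO, 0.933 and 2.27 with vehicle) and Pglyrp1 (0.682 and 1.38 CPM with TG, 16.6 and 17.8 in the KO and 1.87 and 2.04 with vehicle) were lowered by TG (-1.22 and -0.89) and raised by the KO (3.97 and 3.13). Tnfrsf11b, the decoy receptor osteoprotegerin, was 5.8 and 3.67 CPM with TG, 96.4 and 98 in the KO and 59.1 and 61.2 with vehicle. For Tnfrsf11b the difference was -4.37 ± 0.097 SE, adjusted p = 2.3e-41. Podnl1 was 0.767 and 0.459 CPM with TG, 21.7 and 18.8 in the KO and 11.3 and 9.99 with vehicle. Epas1, Il5 and Tnfrsf8, described above, complete the 12.

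Some genes were called in opposite directions by the drug and by the knockout against vehicle. By the rule these are, among those higher with TG, Ccn1, Shisa3, Cd24a, Il21, Rab39b and Sox4; Sox4, a transcription factor of immature lymphocytes, was 67.2 and 64.6 CPM with TG, 9.17 and 8.2 in the KO and 13.8 and 13.6 with vehicle. For Sox4 the difference was 2.91 ± 0.0881 SE, adjusted p = 4.5e-35. Rab39b, a small GTPase, was 31.2 and 33.3 CPM with TG, 3.85 and 4.64 in the KO and 5.36 and 6.59 with vehicle. Among those higher in the KO they are Zfp683, Epas1, Itih5, Il5, Podnl1 and Tnfrsf11b. At the other end, a search for genes of at least 50 CPM in all 3 groups that both agents moved by at least 2-fold in 1 direction found 3. These were Abcd3, a peroxisomal transporter (199 and 208 CPM with TG, 148 and 150.1 in the KO, 55.4 and 54.4 with vehicle; 0.45 ± 0.0409 SE, adjusted p = 1.7e-14), Plek, a platelet and leukocyte signalling protein (1486 and 1484 CPM with TG, 560.3 and 592 in the KO and 255 and 271 with vehicle; 1.37 ± 0.0352 SE, adjusted p = 2.3e-38), and Il23a, the p19 cytokine subunit (514 and 508 CPM with TG, 173 and 189.5 in the KO and 53.9 and 53.5 with vehicle, 2.83-fold higher with TG than in the KO at adjusted p = 3.5e-38). All 3 were raised by both and stood higher with TG. The search left out genes under 50 CPM in any group, Bcl2l11 among them (23.3 and 23.9 CPM with vehicle). Both agents raised Bcl2l11, TG by 1.29 and the KO by 1.35, and the interval of TG minus KO was -0.17 to 0.05.

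The effect of TG in resting cells comes from 4 libraries that are not among those of TG against KO. The 2 may thus be set against each other, although both sets of calls use the spread pooled over 12 T cell libraries. TG changed 9300 genes in resting cells (69.2%), 34.1% up and 35.2% down (by at least 2-fold 11% and 13%). Of the 742 genes at least 2-fold higher with TG than in the KO, 536 (72.2%, and 11.7% of the resting rises) rose with TG in resting cells and 40 (5.39%) fell. Of the 1110 at least 2-fold lower, 824 (74.2%, and 17.4% of the resting falls) fell and 65 (5.86%) rose. The shares of all tested genes were the 34.1% and 35.2% above. Itih5, lower with TG than in the KO, rose with TG in resting cells (0.33 ± 0.149 SE, adjusted p = 0.045). The resting TG effect on Il5 missed the threshold (-0.79 ± 0.952 SE, adjusted p = 0.48). Egr3 and Irf8 rose with TG in resting cells (2.997 and 0.80) and were lower with TG than in the KO in activated ones (-1.80 and -1.25). Cth (6.82) and Aldh1l2 (5.89) rose in resting cells, from 9 and 15 counts over the resting vehicle libraries, and Tgm2 (-5.77), Nfatc2 (-2.96) and Hmgcs1 (-1.43) fell.

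**Figure D5:**
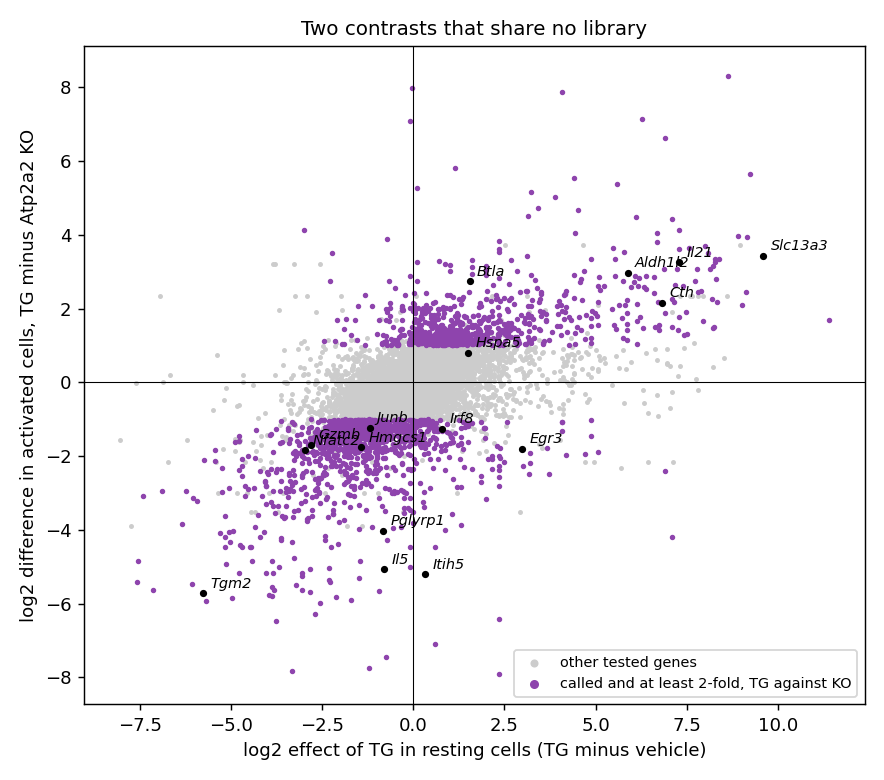
Difference of TG to Atp2a2 KO in activated cells (vertical, log2) against the effect of TG in resting cells (horizontal, log2 TG minus vehicle), 1 point per tested gene; purple, called and at least 2-fold in TG against KO. The 2 axes share no library, and 536 of the 742 upper purple genes rose and 824 of the 1110 lower ones fell in resting cells.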

How the data were processed

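The data are gene counts of total RNA from 20 mouse libraries (10 groups of 2), of which 4 are compared here and 8 more T cell libraries share the fit. The deposited table holds raw counts per Ensembl gene. The submitters' processing notes name STAR 2.6.0c, HTSeq and GRCm38 (mm10). The HTSeq version, strand setting, annotation and filters are not given in the sources used here, so genes overlapping on opposite strands may carry each other's counts, and reads of close copies cannot be apportioned. Of 46603 identifiers 46091 were named from GENCODE M21 (GRCm38), and the 512 unnamed held 0.0759% of counts.

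Counts were filtered (filterByExpr defaults, 13432 genes), TMM-scaled and fitted with edgeR 4.0.16 (robust quasi-likelihood, 12 libraries, 6 residual degrees of freedom, R 4.3.3, limma 3.58.1), with Benjamini-Hochberg adjustment over all tested genes. The fit also draws on the spread of other genes, with a median of 47.3 prior degrees of freedom. The spread between libraries of a group, as a coefficient of variation common to all genes, came to 2.8%. The standard error is the log2 difference over the square root of F. Groups come from the titles. A group with 0 counts is set against a floor of 3 counts over the group. As alternatives, the counts were also fitted with DESeq2 1.42.0, scaled by relative log expression, left unfiltered, filtered at 5 CPM in 2 libraries, fitted with a replicate block or in fewer groups, and refitted without each library. The procedure was tested on simulated data with known changes. The simulated counts used the spread estimated from these libraries, so they cannot show how the p-values hold for separate cultures.

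The groups compared, the 42 gene lists (9 to 38 members) and the 7 marker lists were chosen with earlier results of these data known. By rule 259 genes could be named. They are the 12 called genes with the largest difference each way (no overlap between libraries, at least 10 CPM in the higher group, gene models left out), a panel of 53, up to 4 called members of each list with the largest difference, all members of the calcium lists, the genes of at least 50 CPM in all 3 activated groups that both agents moved at least 2-fold in 1 direction with the smallest difference between them (3 were found, each still different between drug and knockout), and 6 each way with opposite calls against vehicle. Asns is named for its promoter alone. The contrast of the KO groups and the test of the TG effect between cell states were added after the data were seen.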

Additional observations from a re-analysis of the deposited data

Results flagged for a closer look

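Of the 53 genes of the panel, 9 had TG effects of opposite direction in activated and in resting control cells. For these 9 the difference of the effects passed edgeR's quasi-likelihood test with Benjamini-Hochberg adjustment. The share of all tested genes that meets this rule was not counted. TG changed 65% of all tested genes in activated cells and 69.2% in resting cells. The difference (activated minus resting effect, log2) was -3.63 for Atf3 (effect -0.499 activated and 3.13 resting, adjusted p = 8.89e-35) and -1.71 for Tnf (-1.06 and 0.647, adjusted p = 2.7e-27). It was -1.2 for Atp2b4 (-0.852 and 0.351, adjusted p = 1.21e-25) and -0.966 for Myc (-0.75 and 0.217, adjusted p = 6.62e-22). For Atp2a2, the targeted gene, it was -0.865 (-0.17 and 0.695, adjusted p = 7.01e-22). The difference was positive for Atp2a1 (2.21, adjusted p = 0.00237), whose level was near 1 CPM with TG, and for Bbc3 (1.73, adjusted p = 1.23e-06). It was also positive for Bcl2 (0.671, adjusted p = 1.04e-17) and Cd69 (0.335, adjusted p = 2.26e-05).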

How the results depend on the processing

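No named gene reversed under any alternative run, and the counts for TG against KO stayed within 1.5 times their values except that a filter of 5 CPM in 2 libraries left 455 genes at least 2-fold higher with TG against 742, fewer genes being tested. DESeq2 called 6445 genes in TG against KO, and for the KO effect 3156 against 4986; the cause was not tested. With each compared library left out in turn, TG against KO gave 7104 to 7688 calls. Of 259 named genes, DESeq2 moved 10 across the threshold, the fit without TG replicate 1 moved 13 and that without KO replicate 1 moved 12. Replicate numbers are shared by the groups, but the labels do not say that they pair libraries, and deviations of same-numbered TG and KO libraries correlated at -0.0673, those of KO and vehicle activated libraries at 0.109, and those of TG and vehicle activated libraries at -0.0215. With a replicate block 8056 genes were called and 259 of 259 named genes kept their side of the threshold. The release channel list, with 1 higher and 5 lower members, had 2 to 3 lower ones under several settings (DESeq2 2). Groups of 2 libraries with so small a spread leave separate cultures unmeasured, and genes under about 1 CPM rest on few counts.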
